A study of Mus musculus with 6 samples.

Results

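The 10 genes described here encode the machinery that carries a cell through G1: the D-type cyclins (Ccnd1, Ccnd2 and Ccnd3), their partner kinases (Cdk4 and Cdk6), the inhibitors of these kinases (Cdkn1b of the KIP family and Cdkn2a, Cdkn2b and Cdkn2c of the INK4 family) and the pocket protein gene Rb1. They were picked by symbol, through the Ensembl identifiers of GRCm38, from a table of 49315 genes, and all 10 were found and passed the filter on low counts. Levels came from RNA sequencing of TKO (triple knockout), a mouse ovarian cancer line. There were 3 libraries of TKO cells with MNRR1 knocked out (KO) and 3 libraries of TKO cells with MNRR1 intact (WT), and both genotypes carry the alterations that give the line its name, which the labels do not specify. The KO libraries came from 1 clone, so the knockout and the clone cannot be told apart. Nothing in the labels says that a genotype's replicates were separate cultures, so a p-value measures the spread between libraries alone, and that spread may be technical. Wherever values of single libraries are given, they are in the order of replicates 1, 2 and 3.

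D-type cyclins are made in response to growth signals, bind CDK4 or CDK6 and, with them, phosphorylate the retinoblastoma protein, which then releases E2F transcription factors that turn on genes of DNA synthesis. INK4 proteins bind CDK4 and CDK6 and keep them from their cyclins. The KIP protein p27, the product of Cdkn1b, inhibits CDK2 complexes and is itself held by cyclin D complexes. In many tumours, ovarian cancers included, this pathway is altered through gain of cyclins or kinases or loss of INK4 proteins or of the retinoblastoma protein.

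Total counts ran from 33226463 to 40983999 per library. Chchd2, the gene of MNRR1, was at 16.6, 17.6 and 17.0 CPM across KO and 367, 349 and 340 CPM across WT libraries, so the targeted gene and the labels went together. CPM scale a gene's counts to library size, here corrected by TMM, which allows for differences in RNA composition. A change is the log2 ratio of KO to WT fitted by edgeR's quasi-likelihood test, with Benjamini-Hochberg adjustment over the 16033 genes tested, and it is called at an adjusted p under 0.05. The 9 markers of ovarian surface and Mullerian epithelium summed to 2251 to 2381 CPM across KO and 2775 to 2930 CPM across WT libraries, with Wt1 the highest and Pax8 at 4 counts or fewer in 4 of the 6 libraries. They went both ways, since of 8 tested Krt7 (-1.88), Msln (-1.38), Krt8 (-0.76) and Krt18 (-0.55) fell and Muc16 (0.46) and Krt19 (0.44) rose on the log2 scale. Leukocyte markers summed to at most 2.36 CPM in any library, endothelial markers (Kdr lower and Tek higher) to at most 6.20 CPM and granulosa markers to at most 1.44 CPM, and Cd3e, Fshr and Cyp19a1 had 0 counts in all 6 libraries. Stromal markers summed to 449 to 491 CPM across KO and 490 to 527 CPM in WT, mostly from Dcn, which was not called. Beneath that sum Thy1 had 0 counts in every KO library and 69, 92 and 85 counts across WT libraries, and Pdgfrb was 4.41-fold higher in KO. Whether these markers have a part in the results was not tested, and in bulk RNA fewer cells of a kind and less RNA per cell cannot be told apart. KO replicate 2 lay nearer to WT (mean correlation 0.968 across genes) than KO replicates 1 and 3 did (0.958 and 0.954). With library totals in place of TMM the median change over all tested genes was 0.13 on the log2 scale in place of 0.01 and 63.7% of called genes were higher in KO in place of 50.0%, so the scaling bears on small changes.

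Of the 10 genes, 8 were called, 4 higher and 4 lower in KO. The background was high, since 55.7% of all tested genes were called, 27.8% as higher and 27.8% as lower. The D cyclins Ccnd1 and Ccnd3 and the kinases Cdk4 and Cdk6 fell, whereas the inhibitors Cdkn1b, Cdkn2a and Cdkn2c and the cyclin Ccnd2 rose. Cdkn2b and Rb1 did not pass the test. For the 8 called genes, 80% of the set, the 2 genotypes had no overlapping values, as was the case for 64.0% of tested genes. The median size of change, regardless of sign, was 0.29 on the log2 scale for the 10 genes and 0.35 for all tested genes, so the typical change in the set was no larger than that of a tested gene.

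**Figure D1:**
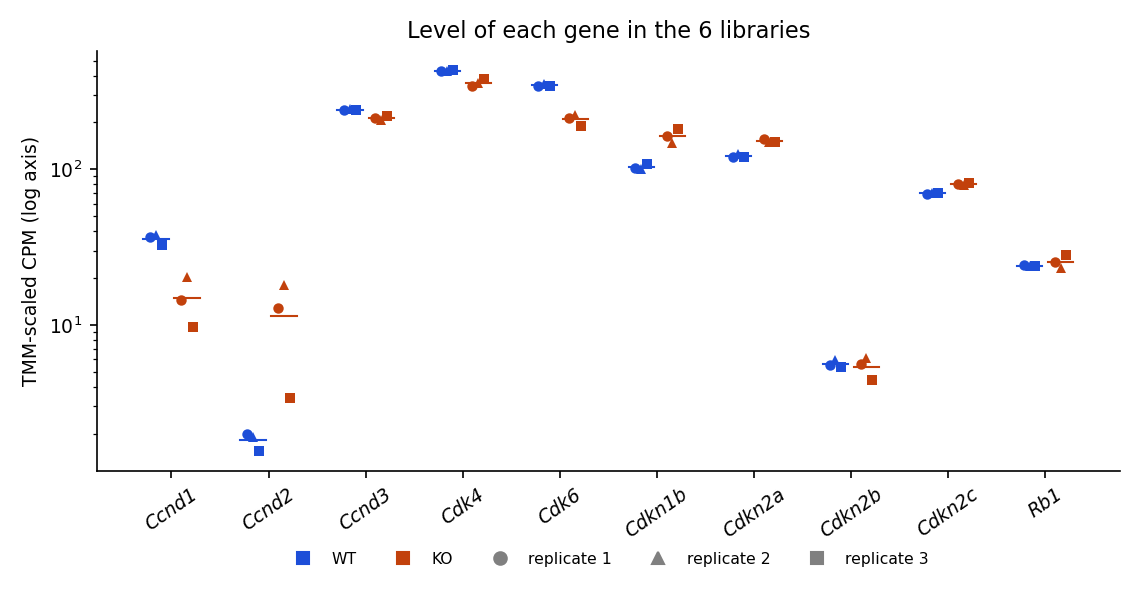
TMM-scaled CPM (log axis) of each gene in each library, WT in blue and KO in orange, with marker shapes for replicates 1 to 3 and a bar at the mean of 3. KO points lie apart from WT points for 8 genes and overlap them for Cdkn2b and Rb1, and the KO points of Ccnd1 and Ccnd2 are the most scattered.

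Ccnd1 encodes cyclin D1, the D cyclin most often amplified in cancer (ENSMUSG00000070348, chromosome 7, positions 144929931 to 144939925, minus strand of GRCm38). It was at 14.5, 20.2 and 9.75 CPM across KO and 36.6, 38.0 and 32.6 CPM across WT libraries. Every KO library was below every WT library, and the KO libraries were spread more widely. The fitted log2 change was -1.27 (SE 0.23), a KO level of 41.5% of WT (adjusted p = 0.00227 in edgeR's test). Exons of Ccnd1 share 1100 bases, 23.4% of its exon length, with LTO1 on the opposite strand, and LTO1 was at 12.3 ± 1.29 CPM across KO and 11.8 ± 0.540 CPM across WT (SD, n = 3 each, adjusted p = 0.647 in edgeR's test).

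Ccnd2 encodes cyclin D2, the D cyclin of ovarian granulosa cells among other tissues (ENSMUSG00000000184, chromosome 6, positions 127125162 to 127152193, minus strand). KO libraries held 447, 734 and 132 counts and WT libraries 70, 64 and 61 counts, or 12.8, 18.0 and 3.40 CPM against 2.00, 1.89 and 1.54 CPM. All 3 KO libraries were above WT, but replicate 3 was much closer to WT than the other two were. The log2 change was 2.66 (SE 0.66), a 6.32-fold rise, and the adjusted p was 0.0167 in edgeR's test. This call was lost without KO replicate 2 (change 2.15, adjusted p = 0.0817 in edgeR's test) and with no filter on low counts (adjusted p = 0.0774). Without KO replicate 3, the lowest of the KO libraries, the change was 3.10 and the adjusted p 1.55e-08 in edgeR's test. The coefficient of variation of Ccnd2 over KO libraries was 65.0%, where the median of tested genes was 9.82% and the 95th percentile 43.4%. That of Ccnd1 was 35.3%. In both genes KO replicate 2 was the highest and KO replicate 3 the lowest of the 3 KO libraries, so for Ccnd1 the library nearest to WT overall was also nearest to WT, while for Ccnd2 it was the farthest.

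Ccnd3 encodes cyclin D3 (ENSMUSG00000034165, chromosome 17, positions 47505051 to 47599691, plus strand). It was at 213, 207 and 221 CPM across KO and 240, 242 and 241 CPM across WT libraries. The KO libraries were all lower by a small margin, a log2 change of -0.18 (SE 0.05, adjusted p = 0.00902 in edgeR's test). With library totals, where the median of all genes was 0.13, the change was -0.05 and the call was lost (adjusted p = 0.362). Its exons share 361 bases, 4.11% of their length, with Bysl on the other strand, which fell by 0.67 on the log2 scale. The processed pseudogene Ccnd3-ps, 96.3% identical over 881 bases and looked up with its counts in view, had at most 8 counts in a library.

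Per kilobase of exon, Ccnd3 made up most of the D cyclin RNA in every library. Its share of the summed reads per kilobase of the 3 cyclin genes was 84.5%, 79.2% and 91.2% across KO and 77.4%, 77.0% and 79.5% across WT libraries. KO replicate 2 fell within the WT range, so the shares of Ccnd3 overlapped (exact two-sided permutation p = 0.2). Ccnd1 made up 10.9% ± 3.44 across KO and 21.5% ± 1.28 in WT (SD, n = 3 each), and Ccnd2 made up 4.16% ± 2.61 across KO and 0.545% ± 0.0658 in WT. Neither of these shares overlapped between genotypes, with an exact two-sided permutation p of 0.1 for each, the smallest that 3 against 3 libraries allow. The summed level of the 3 genes was 28.7 ± 1.11 RPKM (CPM per kilobase of exon) across KO and 35.3 ± 0.683 RPKM in WT, that is 81.4% of WT (SD, n = 3 each, exact two-sided permutation p = 0.1). The total was below every WT library in each KO library.

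**Figure D2:**
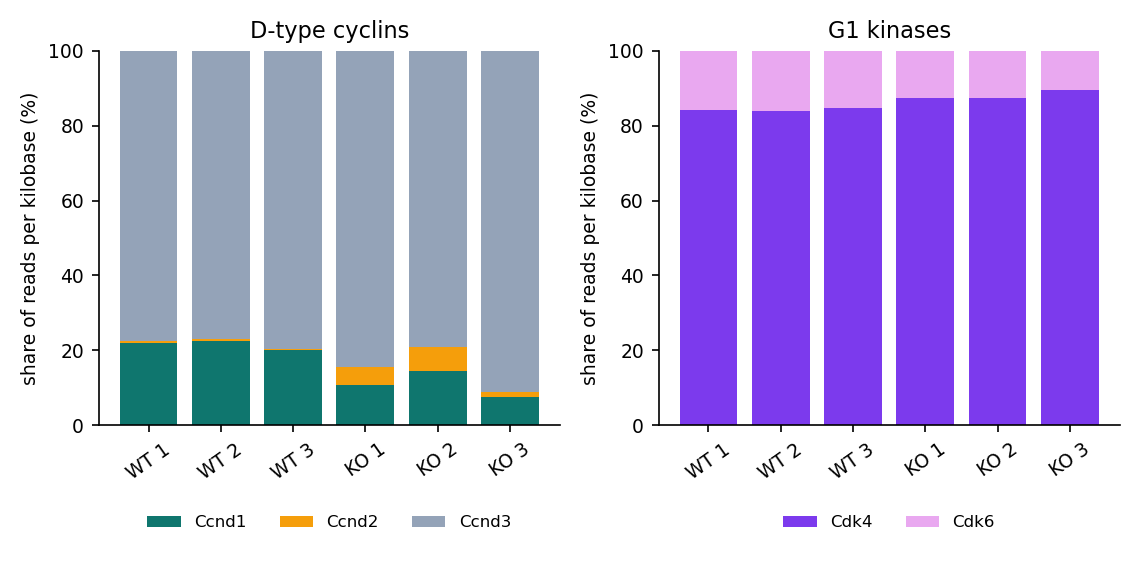
Shares (%) of summed reads per kilobase of exon in each of the 6 libraries, for the 3 D-type cyclin genes (left) and for Cdk4 and Cdk6 (right). Ccnd3 and Cdk4 take most of each bar, and Ccnd1 and Cdk6 take less in the KO bars.

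Cdk4 encodes the G1 kinase with the higher level here (ENSMUSG00000006728, chromosome 10, positions 127063534 to 127067920, plus strand). It was at 342, 357 and 378 CPM across KO and 426, 431 and 436 CPM across WT libraries. The groups did not overlap, and the log2 change was -0.26 (SE 0.05, adjusted p = 0.00142 in edgeR's test). Cdk4 shares 641 exon bases, 19.7% of its exon length, with Tspan31 on the opposite strand. Tspan31, a tetraspanin gene, was at 50.8 ± 2.64 CPM across KO and 45.4 ± 1.72 CPM across WT (SD, n = 3 each). Its log2 change of 0.16 was called (adjusted p = 0.0440 in edgeR's test). That call was lost without any 1 library other than KO replicate 2 (adjusted p of 0.0641 to 0.175). It was also lost in edgeR's test with DESeq2 size factors (adjusted p = 0.0562) or no filter (0.1015), and in DESeq2's own test (0.0790).

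Cdk6 encodes the other G1 kinase (ENSMUSG00000040274, chromosome 5, positions 3341485 to 3531008, plus strand). It was at 214, 224 and 190 CPM across KO and 345, 355 and 341 CPM across WT libraries. Among the 10 genes this change had the smallest adjusted p, at -0.73 (SE 0.06) or 60.4% of the WT level, with 5.90e-06 as adjusted p in edgeR's test. Cdk4 took 88.0% ± 1.30 of the reads per kilobase of the pair across KO and 84.3% ± 0.343 in WT (SD, n = 3 each, exact two-sided permutation p = 0.1). The sum of both kinases was 125 ± 4.80 RPKM across KO and 158 ± 1.42 RPKM in WT (SD, n = 3 each, exact permutation p = 0.1), or 79.6% of WT, beside 81.4% for the summed cyclins. Exons of Cdk6 share 368 bases, 2.63% of their length, with the antisense gene Gm17590, which had few counts, and the Cdk6 pseudogene Gm16505, 96.1% identical over 233 bases, had at most 37 counts in a library.

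The stretch of 250 bases just before the RefSeq start (GRCm38.p6) is shown for both kinases because both fell and because Cdk4 is a textbook target of MYC, which binds the E-box CACGTG. Capitals mark E-boxes and the E2F motif TTTNNCGC, searched on both strands, and the strand shown is plus for each.
Cdk4 chr10:127063285-127063534: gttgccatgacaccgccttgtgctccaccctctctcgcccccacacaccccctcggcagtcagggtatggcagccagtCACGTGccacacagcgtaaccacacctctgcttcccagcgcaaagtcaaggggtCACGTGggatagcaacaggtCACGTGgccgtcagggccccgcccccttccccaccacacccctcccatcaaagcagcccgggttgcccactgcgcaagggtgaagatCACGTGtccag
Cdk6 chr5:3343643-3343892: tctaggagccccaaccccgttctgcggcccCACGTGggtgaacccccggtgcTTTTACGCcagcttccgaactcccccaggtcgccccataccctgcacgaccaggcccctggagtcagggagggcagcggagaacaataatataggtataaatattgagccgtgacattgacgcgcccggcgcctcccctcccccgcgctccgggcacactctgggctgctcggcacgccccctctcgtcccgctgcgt
The Cdk4 stretch held 4 E-boxes and the Cdk6 stretch 1 E-box and 1 E2F motif. Of 32851 such stretches over all genes, 6.02% held an E-box, 0.0213% held at least 4 and 4.28% held an E2F motif. The cut of 4 was taken from the Cdk4 stretch, itself shown as that of a known MYC target, so this share is no test. The FOXO motif TGTTTAC (3.17% of stretches) and the AP-1 motif TGANTCA (6.75%) were searched as well, and of the 10 stretches found for these genes 1, of Ccnd3, held a FOXO motif. The stretches of Cdkn1b, Cdkn2b and Cdkn2c held none of these motifs. A match describes the letters only. Myc itself was at 6.64, 10.8 and 4.67 CPM across KO and 15.4, 17.7 and 12.7 CPM across WT libraries. That is a log2 change of -1.05 (SE 0.27, adjusted p = 0.00980 in edgeR's test), lost with no filter on low counts (adjusted p = 0.0665). In both genotypes replicate 2 had the highest and replicate 3 the lowest Myc. The same order held for Ccnd1, Cdk6 and Cdkn2b, of which Cdkn2b was not called. How common this order is over all genes was not counted. Cdk4 went another way, highest in replicate 3 and lowest in replicate 1 of both genotypes. Whether Myc bears on any of these genes was not tested.

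Cdkn1b, the p27 gene, had the smallest adjusted p among the genes that rose (ENSMUSG00000003031, chromosome 6, positions 134920401 to 134925513, plus strand). It was at 164, 148 and 182 CPM across KO and 103, 100 and 108 CPM across WT libraries. All KO values were above all WT values, and the log2 change was 0.67 (SE 0.07), a 1.59-fold rise (adjusted p = 2.63e-05 in edgeR's test). Its exons overlap no other annotated gene. The nearest tested genes on either side are noncoding RNA genes, 2810454H06Rik and Lockd, and they rose by 0.74 and 0.64 on the log2 scale. The call of 2810454H06Rik was lost when KO replicate 1 or 3 or WT replicate 1 or 3 was left out (adjusted p of 0.0908 to 0.115). Per kilobase, the ratio of Cdkn1b to the summed D cyclins was 1.26, 1.09 and 1.45 across KO and 0.637, 0.612 and 0.688 across WT libraries, and the genotypes did not overlap (exact two-sided permutation p = 0.1). The size of this ratio depends on the exon lengths used.

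Cdkn2a encodes 2 unrelated proteins from different first exons, the INK4 protein p16 and p19Arf, which stabilises p53 by binding MDM2 (ENSMUSG00000044303, chromosome 4, positions 89274471 to 89294653, minus strand). The gene count pools both transcripts and does not say which one is read. It was at 157, 149 and 149 CPM across KO and 121, 126 and 120 CPM across WT libraries, a log2 change of 0.31 (SE 0.05, adjusted p = 0.000325 in edgeR's test). The genotypes did not overlap and the libraries within each were close, with a coefficient of variation of 2.89% across KO and 2.30% in WT. To show that the pooled count joins unlike promoters, the 250 bases before each RefSeq start of the gene are given on the minus strand, with the E2F motif TTTNNCGC in capitals.
Cdkn2a, upstream start (p19Arf), chr4:89294620-89294869: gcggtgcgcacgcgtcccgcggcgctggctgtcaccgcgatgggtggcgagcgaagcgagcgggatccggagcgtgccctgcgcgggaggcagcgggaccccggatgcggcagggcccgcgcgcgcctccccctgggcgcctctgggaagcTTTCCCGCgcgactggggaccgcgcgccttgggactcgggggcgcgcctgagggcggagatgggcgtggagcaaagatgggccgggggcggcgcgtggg
Cdkn2a, downstream start (p16), chr4:89282193-89282442: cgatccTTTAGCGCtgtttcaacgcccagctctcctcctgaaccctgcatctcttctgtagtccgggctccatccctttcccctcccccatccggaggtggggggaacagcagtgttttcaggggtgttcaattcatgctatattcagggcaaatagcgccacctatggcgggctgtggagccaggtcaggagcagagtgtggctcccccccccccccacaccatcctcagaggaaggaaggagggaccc
The upstream stretch was 78.4% G and C and the downstream one 60% G and C, against a median of 52.4% over all stretches, and each held 1 E2F motif. Promoter stretches were found for 7 of the 10 genes in the RefSeq table, which gave none for Ccnd1, Ccnd2 and Rb1.

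Cdkn2b, the p15 gene, lies next to Cdkn2a (ENSMUSG00000073802, chromosome 4, positions 89306299 to 89311039, minus strand) and was not called. It was at 5.64, 6.12 and 4.41 CPM across KO and 5.49, 5.96 and 5.37 CPM across WT libraries. The groups overlapped, and the log2 change of -0.06 (SE 0.15, adjusted p = 0.762 in edgeR's test) turned to 0.07 without KO replicate 3 and to 0.06 with library totals, where the median of all genes was 0.13. The difference in change between the neighbours was not tested. Cdkn2c, the p18 gene on the same chromosome (ENSMUSG00000028551, positions 109660876 to 109667189, minus strand), was at 80.2, 79.5 and 81.8 CPM across KO and 69.2, 70.3 and 70.5 CPM across WT libraries. Its rise was small but larger than the spread between libraries, with a log2 change of 0.20 (SE 0.05, adjusted p = 0.00523 in edgeR's test).

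Rb1, the retinoblastoma gene and the target of the cyclin D kinases (ENSMUSG00000022105, chromosome 14, positions 73183673 to 73325822, minus strand), was at 25.4, 23.1 and 27.9 CPM across KO and 24.2, 23.7 and 24.0 CPM across WT libraries. KO replicate 2 lay below all WT libraries and the other two above them, and the log2 change of 0.09 (SE 0.08) missed the threshold (adjusted p = 0.383 in edgeR's test). Rb1 shares 408 exon bases with Lpar6 and 488 with Rcbtb2, both on the opposite strand.

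**Figure D3:**
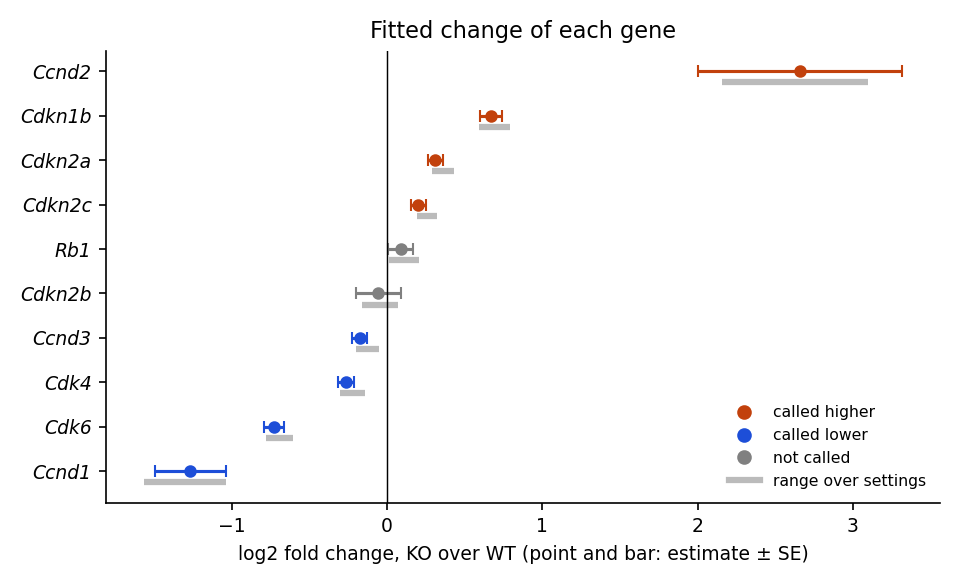
Fitted log2 fold change of each gene (points, KO over WT) with its SE, orange where called higher, blue where called lower and grey where not called, and grey bars for the range over all settings tried. The 4 genes called lower are 2 cyclins and both kinases, and of the alternative ranges only that of Cdkn2b crosses 0.

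Ordered by level per kilobase of exon, WT libraries had Cdk4 at 133 RPKM, Cdkn2a at 104, Ccnd3 at 27.5, Cdkn2c at 26.1, Cdk6 at 24.8, Cdkn1b at 22.8, Ccnd1 at 7.58, Cdkn2b at 4.03, Rb1 at 3.99 and Ccnd2 at 0.192 RPKM. Only Cdkn2b and Rb1 were neighbours in this order whose ranges over 3 libraries overlapped. In KO libraries Cdkn2a, at 129 RPKM, stood above Cdk4, at 110, and Cdkn1b came next at 36.2, followed by Cdkn2c at 30.0, Ccnd3 at 24.3 and Cdk6 at 15.0. Below them Rb1 at 4.24, Cdkn2b at 3.88 and Ccnd1 at 3.14 RPKM were neighbours with overlapping ranges, and Ccnd2 was last at 1.21 RPKM with no overlap. Levels per kilobase use all annotated exons of a gene together, and a gene that uses short isoforms is understated.

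Among other inhibitors and pocket protein genes, 4 of 6 were called, 2 higher and 2 lower, with a median log2 change of -0.09 (0.01 over all tested genes). This 66.7% is near the 55.7% of all tested genes, so the count is no result about the list. Cdkn1a, the p21 gene, rose by 2.47 on the log2 scale. Rbl2, which encodes the pocket protein p130 of quiescent cells, went up from 27.6 ± 1.09 to 53.9 ± 4.57 CPM (SD, n = 3 each), or by 0.96 on the log2 scale (SE 0.07, adjusted p = 2.68e-06 in edgeR's test). Rbl1, the p107 gene, averaged 93.6 CPM across KO and 95.1 CPM in WT and did not pass (adjusted p = 0.741). Cdkn1c, the p57 gene, fell by 1.23 on the log2 scale from counts of 23, 26 and 34 to counts of 12, 15 and 10, and Cdkn3, a phosphatase gene, fell by 0.41. Cdkn2d, the p19 INK4 gene, averaged 11.4 CPM across KO and 12.7 CPM across WT libraries (adjusted p = 0.274 in edgeR's test). Within the KIP family, Cdkn1a and Cdkn1b rose and Cdkn1c fell.

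Among the cyclin E, CDK2 and CDK activation genes and among the E2F and DP factor genes, most called genes were lower. Of 14 genes of cyclin E, CDK2 and CDK activation, 10 fell and 1 rose (78.6% called). The median change was -0.35 on the log2 scale. Over all tested genes 55.7% were called, 27.8% as lower and 27.8% as higher, with a median of 0.01. Cdc25a, the phosphatase gene that activates CDK2, fell by 0.71, Ccne2 (cyclin E2) by 0.56, the CDK subunit gene Cks2 by 0.53 and the CDK-activating kinase gene Cdk7 by 0.39. Ccne1 (cyclin E1) averaged 13.2 CPM across KO and 13.4 CPM across WT (adjusted p = 0.903 in edgeR's test), and Cdk2 averaged 66.4 and 72.0 CPM (adjusted p = 0.0897). Of 10 E2F and DP factor genes, 6 fell and 2 rose (80% called), and the median was -0.36. E2f1, an activator of S phase genes, went down from 56.5 ± 0.673 to 38.0 ± 3.91 CPM (SD, n = 3 each), or by -0.57 on the log2 scale, and E2f7 and E2f8, which repress E2F targets, fell by 0.60 and 0.55. E2f2, another activator, rose by 0.68.

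Of 32 E2F target and S phase genes, 19 fell and 2 rose. The share called was 65.6%, against 55.7% of all tested genes, of which 27.8% fell. Their median log2 change was -0.21 where the median of all genes was 0.01. Mybl2 fell by 0.65, the uracil glycosylase gene Ung by 0.62, the ribonucleotide reductase gene Rrm1 by 0.57 and the thymidylate synthase gene Tyms by 0.56. With library totals 4 rose and 12 fell and the median was -0.09, against 0.13 for all genes. Mki67, a marker of cycling cells, averaged 762 ± 34.1 CPM across KO and 748 ± 22.0 CPM across WT (SD, n = 3 each, adjusted p = 0.688 in edgeR's test), and with library totals its log2 change of 0.15, beside 0.13 for the median gene, passed (adjusted p = 0.0405).

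**Figure D4:**
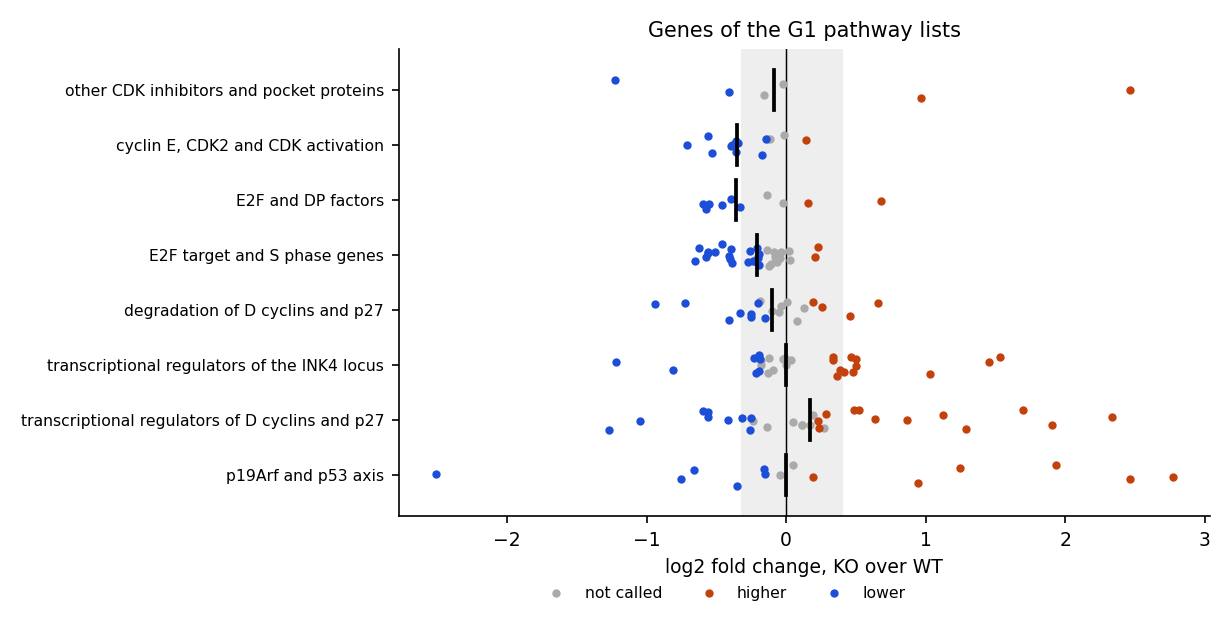
Fitted log2 fold change (KO over WT) of each tested gene in 8 lists of the G1 pathway, orange where called higher, blue where called lower and grey where not called, with a black bar at the list's median and a shaded band for the middle 50% of all tested genes. The medians of the cyclin E, E2F factor and E2F target lists lie farthest left of 0. Those of the other inhibitors (-0.09) and of the degradation list (-0.10) lie less far left. That of the regulators of D cyclins and p27 lies right of 0.

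Genes for the turnover of D cyclins and p27 went both ways, 4 higher and 8 lower of 19, with a median log2 change of -0.10. Their 63.2% called is near the 55.7% of all tested genes (27.8% each way), so the count is no result about the list. With library totals 7 were higher and 5 lower, and the median lay 0.11 below that of all genes under either scaling. Cryab and Fbxo4, which encode partners in a ubiquitin ligase for cyclin D1, fell by 0.94 and 0.72. Btrc, an F-box protein gene, rose by 0.66 and Rnf123, which encodes a ubiquitin ligase for p27, rose by 0.46. Among 28 tested regulators of the INK4 locus 12 rose and 7 fell (12 and 2 with library totals), and the median was -0.0025. Of these 67.9% were called, again near 55.7%, so this count is no result about the list either. The Polycomb genes Ezh1 and Cbx8 rose by 1.53 and 1.03, while Id2, an inhibitor of helix-loop-helix factors, fell by 1.22 and the ETS factor gene Ets1 fell by 0.81. Among 29 tested regulators of D cyclins and p27 there were 12 that rose and 9 that fell, and the median was 0.17. The share called was 72.4%, against 55.7% of all tested genes. The AP-1 gene Jun rose by 1.90 and Mxi1, a MYC antagonist gene, by 1.29. Notch1 and Lef1, a Wnt pathway factor gene, rose by 2.34 and 1.70 from low levels. Notch1 had 44, 20 and 75 counts across KO and 5, 11 and 10 counts across WT libraries, and Lef1 had 34, 29 and 53 against 8, 8 and 18 counts. With a filter of at least 1 CPM in 3 libraries, 27 regulators were tested and 10 rose and 9 fell.

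On the p19Arf and p53 axis 6 of 14 genes rose and 6 fell (7 and 4 with library totals), around a median of 0.00. The share called was 85.7%, against 55.7% of all tested genes. Trp53inp1 rose by 2.77 and Btg2, an antiproliferative gene, by 1.93 beside Cdkn1a, while Plk2 fell by 2.51. Mdm2, the ubiquitin ligase gene of p53 that p19Arf binds, went down from 83.5 ± 0.870 to 65.4 ± 7.59 CPM (SD, n = 3 each), which is -0.35 as log2 change (edgeR adjusted p = 0.00252). Trp53 was not stably called, with a log2 change of -0.16 (adjusted p = 0.0165 in edgeR's test) that missed the threshold when KO replicate 1, WT replicate 1 or WT replicate 2 was left out (adjusted p of 0.0580 to 0.0898) and with library totals or upper quartile scaling (0.453 and 0.0727).

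The genes lie on 7 chromosomes. For 9 genes the median log2 change of tested genes within 5 Mb on either side stayed within 0.17 of 0. Cdk6 starts at position 3341485 of chromosome 5, so its window holds less than 5 Mb on one side. Of all tested genes 27.8% were called higher and 27.8% lower. Around Cdk6 the 36 tested genes had a median of -0.35, with 4 higher and 22 lower. Within 1 Mb their median was -0.19 over 17 genes, with 2 higher and 8 lower, so the fall of Cdk6 by 0.73 was in the direction of its neighbours and larger than their median. Around Ccnd1 the median was 0.02 over 97 genes and around Ccnd2 it was 0.03 over 97 genes. The nearest tested neighbours of Ccnd2 went opposite ways, Tigar at -0.39 and Parp11 at 0.90. The call of Tigar was lost without KO replicate 1, WT replicate 1 or WT replicate 2 (adjusted p of 0.0594 to 0.0815 in edgeR's test). It was also lost with library totals (adjusted p = 0.0676 in edgeR's test). Around Cdk4 the median was 0.17, with 39 higher and 23 lower of 101, so that Cdk4 fell among genes that were mostly higher when called. Whether the position on the chromosome bears on any of these changes was not tested.

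**Figure D5:**
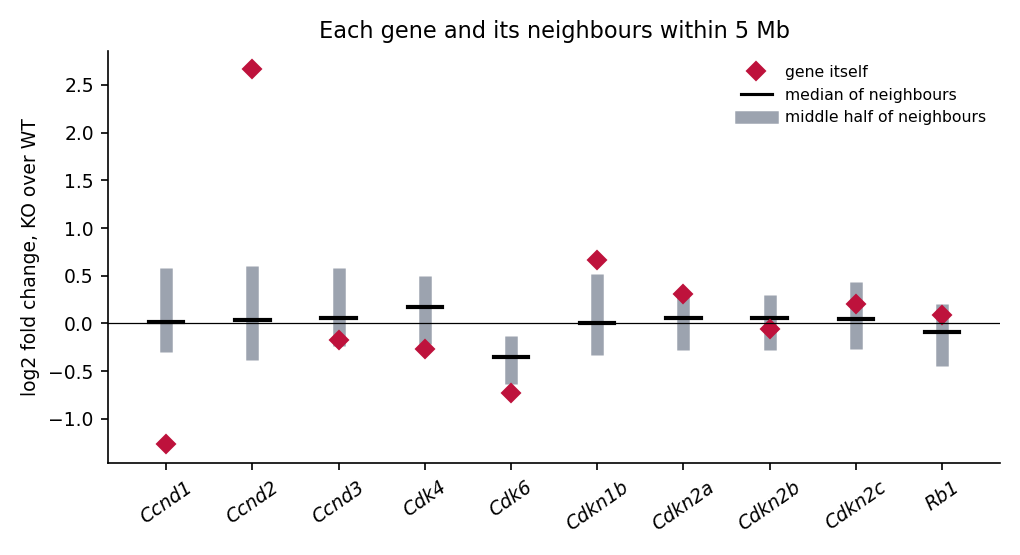
Fitted log2 fold change (KO over WT) of each gene (red diamond) beside the median (black bar) and middle 50% (grey bar) of tested genes within 5 Mb on either side. Only the neighbours of Cdk6 have their middle 50% wholly below 0.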

How the data were processed

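RNA was measured in 6 libraries of TKO mouse ovarian cancer cells (3 KO, 3 WT). The values the authors deposited are unnormalized read counts for each Ensembl gene ID. Tools named in the submitters' processing notes are STAR 2.5.2b, Trimmomatic 0.36, bcl2fastq 2.17, DESeq2 and Subread 1.5.2, on GRCm38 (mm10). The strand setting, the annotation release and the handling of multi-mapped reads were not given in the sources used here, so reads of overlapping genes on opposite strands may be assigned to either. Of 49315 gene IDs, 49056 matched GENCODE M21, which gave symbols, positions and exon lengths.

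Counts were filtered with filterByExpr (minimum count 10), scaled by TMM and tested with edgeR 4.0.16 (R 4.3.3) by a robust quasi-likelihood fit with genotype as its only term, with Benjamini-Hochberg adjustment over 16033 genes at 0.05. SEs come from the test statistic. The procedure was run on simulated counts in which few genes changed and all genes had the same variability, unlike these data. That checks the code and not how well the scaling or the test suits these data. RPKM are TMM-scaled CPM per kilobase of all annotated exons. Shares and sums were compared by exact permutation over libraries. Each library's depth limits low genes such as Ccnd2, with 61 to 70 counts in WT.

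Beside the 10 genes, 15 genes were named whatever their values (among them Cdkn1a, Myc and Mki67), as were the nearest tested gene on each side, the called genes with the greatest change in each list (up to 4, from 1 CPM), and the 3 genes most like the member with the greatest change. The genes and the 8 lists (154 entries, all matched) were chosen with earlier results of these data known, so no list is independent evidence. Alternatives covered scaling, filters, DESeq2 1.42.0, limma voom 3.58.1, a non-robust fit, a block for replicate number, a stricter threshold of 0.01 and leaving out each library. The promoter and pseudogene checks were added after the values were seen. No protein sequences were used here.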

Additional observations from a re-analysis of the deposited data

How the results depend on the processing

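Over 16 alternatives for each of the 10 genes, 154 of 160 values kept their direction and their side of the threshold. The exceptions were Ccnd2 (2.65 with no filter, 2.66 at a threshold of 0.01, 2.15 without KO replicate 2), Ccnd3 (-0.05 with library totals) and Cdkn2b, which is not called and turned to 0.062 with library totals (0.13 for the median gene) and ran from -0.16 to 0.071 when a library was left out. Between 7 and 8 of the 10 genes and between 6887 and 10002 of all genes were called. Without length correction, the share of Ccnd1 among D cyclins changed by -6.66 points in place of -10.6 and that of Cdk4 in the kinase pair by 7.72 points in place of 3.78, because the genes differ in exon length.

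For the other named genes, 920 of 985 values kept direction and side. Upper quartile scaling and library totals moved the median of all genes from 0.01 to 0.06 and 0.13, and uncalled genes near 0 changed sign with that shift. These were Ccne1 (0.033) and Rbl1 (0.030) with upper quartiles and, with library totals, Ccne1 (0.10), Rbl1 (0.10), Cdk2 (0.0031), Gm12609 (0.038), Faf1 (0.044) and Lpar6 (0.015), all below that median. When a library was left out Ccne1 ran from -0.14 to 0.079, Rbl1 from -0.047 to 0.0020, LTO1 from -0.0078 to 0.14, Gm12609 from -0.50 to 0.10 and 9630013D21Rik from -0.078 to 0.18, and the cause was not tested.

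Over all genes, deviations from the genotype mean correlated by -0.06, 0.05 and 0.03 in same-numbered libraries. In differently numbered libraries they correlated by -0.09 to 0.08. Such values do not settle whether the numbers pair the libraries, and the column headers number sets 1 to 3 in both genotypes. With the replicate number as a block, 8878 genes and the same number of the 10 genes, 8, were called. In edgeR's test the block lowered some adjusted p and raised others. It was 9.76e-06 for Ccnd1, 0.00251 for Ccnd2 and 1.12e-06 for Cdkn1b, all lower, and 0.0143 for Ccnd3 and 0.00978 for Cdkn2c, both higher.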

Other observations

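The 3 tested genes whose profiles over the 6 libraries lay nearest to that of Ccnd2, by Euclidean distance between centred log2 CPM (prior 0.5), were Slit2 (distance 1.32), which encodes a secreted guidance protein, Slc7a11 (1.37), the cystine transporter gene, and, next after them, Samsn1. Slit2 was at 7.04, 8.60 and 5.54 CPM across KO and 1.20, 1.42 and 1.41 CPM across WT libraries. Slc7a11 was at 31.9, 38.4 and 26.2 CPM across KO and 5.66, 5.79 and 5.82 CPM across WT libraries. Both had KO replicate 2 highest and KO replicate 3 lowest among KO libraries, as Ccnd2 did, but neither varied as widely between them. Samsn1 was at 1.17, 1.84 and 0.877 CPM across KO and 0.257, 0.177 and 0.101 CPM across WT libraries, with the same order across KO. These genes were picked for likeness to Ccnd2 over the same 6 libraries, so the choice itself favours a shared order.

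Of 3 genes looked at beside the INK4 locus on chromosome 4, 2 fell and 1 was not called, where 27.8% of all tested genes fell. Within 1 Mb of Cdkn2a, 0 of 14 tested genes were higher and 3 lower, with a median log2 change of -0.0023. Within 5 Mb, 3 of 27 were higher and 5 lower, with a median of 0.056. Mtap, which encodes an enzyme of methionine salvage and is often lost together with CDKN2A in tumours, fell from 203 ± 7.61 to 132 ± 23.8 CPM (SD, n = 3 each), a log2 change of -0.62 (adjusted p = 0.00114 by edgeR). It was at 127, 158 and 111 CPM in KO replicates, all below the WT libraries. The noncoding RNA gene Gm12606, the nearest tested gene to Cdkn2a on one side, had 0, 2 and 5 counts across KO and 13, 21 and 31 across WT libraries, a fitted change of -3.22 (SE 0.63). On the other side of Cdkn2b, Gm12609 averaged 0.967 ± 0.413 CPM across KO and 1.03 ± 0.166 CPM in WT (SD, n = 3 each, adjusted p = 0.835 in edgeR's test).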
